A study of Mus musculus with 6 samples.

Results

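Early enterocytes of mouse small intestinal organoids were described by single-cell RNA sequencing, which counts the messenger RNA molecules of each cell as unique molecular identifiers (UMIs). A cell was kept with 1000 or more genes and under 20% of its UMIs in mitochondrial genes. It was taken as an early enterocyte where Gstm3, Arg2, Akr1c19, Cyp2c66 and Ces1f summed to 10 or more per 10000 UMIs, where the mature enterocyte genes Sis, Slc5a1, Mttp, Apob and Slc2a2 summed to under 20 per 10000, and where Chga and Chgb summed to under 10 per 10000. The members were thus chosen by their measured counts of these 12 genes. Of 87954 kept cells, 6159 met the rule. They numbered 1205 and 1468 in the libraries of WT organoids given the solvent DMSO (-EIPA, replicates 1 and 2) and 1333 and 1218 in those of WT organoids with 5 µM EIPA (+EIPA, replicates 1 and 2). Organoids of a CRISPR line gave 803 cells without doxycycline (-Dox, 1 library) and 132 cells with 2 µg/mL doxycycline (+Dox, 1 library). All organoids descended from small intestine of mice 10 weeks old and were collected on day 3. The CRISPR line was made by lentivirus, with Cas9 joined to a green fluorescent protein under a doxycycline switch and a guide RNA on the same construct, and was established as single clones after selection. Both of its libraries carry the construct. Cell sorting kept living cells in all cases, and for +Dox only those positive for the fluorescent protein, so that the sort and the drug cannot be told apart there.

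Enterocytes are the absorptive cells of the intestinal epithelium. They leave the crypt, stop dividing and climb the villus, and on the way they first build detoxifying and antimicrobial defences and later the brush-border enzymes and the machinery for sugar and fat. EIPA is an amiloride derivative that blocks the exchange of sodium for protons across the cell membrane. The comparisons below address whether early enterocytes differ in number or in expression with EIPA, or with doxycycline in the CRISPR line.

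The cells carried absorptive genes at levels between those of crypt cells and mature enterocytes. Mature enterocytes were here the cells at 20 or more per 10000 on the mature gene sum, cycling cells those at 2 or more per 10000 for Mki67 and Top2a and with no Lgr5 UMI, and Lgr5-high cells those at 2 or more per 10000 for Lgr5. Cycling and Lgr5-high cells also had a marker sum under 10 and a mature gene sum under 20 per 10000. Cells with more of this absorptive RNA were thus left out of them by definition. All these classes had Chga and Chgb under 10 per 10000. Fabp1, an intracellular fatty acid carrier, had a median over the 6 libraries of 11151 counts per 1000000 UMIs of the class (CPM) in early enterocytes, against 25327 CPM in mature enterocytes, 454 CPM in cycling cells and 263 CPM in Lgr5-high cells. Alpi, the intestinal alkaline phosphatase, stood at 68.5 CPM in early and 136 CPM in mature enterocytes, and at 9.09 CPM in cycling cells. Krt20, a keratin of differentiated cells, stood at 96.7, 240 and 9.96 CPM in the same order. In the other direction Olfm4, a gene of crypt base cells, was at 277 CPM in early enterocytes and 4642 CPM in Lgr5-high cells, and Hmgb2, a chromatin protein of dividing cells, at 324 CPM against 1505 CPM in cycling cells. Mature enterocytes held Olfm4 at 269 CPM, about the early level, and Hmgb2 at 212 CPM. No marker among the stromal, immune and endothelial genes listed passed 1 CPM as a sum in any library of the class. Since the rule cut the cells on their own counts, these contrasts are given as description with no test.

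Depth was sufficient for summed profiles in WT and thin in +Dox. The early enterocytes of a library held 2850871 to 23506247 UMIs in all, with medians of 11308 to 17250 UMIs per cell. Of the 6159 barcodes, 110 (1.79%) were also kept barcodes of another library. Just inside the marker threshold, from 10 to under 12 per 10000, were 1045 cells, and just outside it, from 8 to under 10, were 1547 cells that met the rest of the rule. On the mature side 988 members lay from 16 to under 20 per 10000, and 828 cells from 20 to under 24 were left out.

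All 5 marker genes of the rule were detected in 52.1% to 59.8% of the members of a WT library, in 26.8% in -Dox and in 37.1% in +Dox. Gstm3, a glutathione S-transferase, was detected in 93.9% to 99.2% of the early enterocytes of a library, and Akr1c19, an aldo-keto reductase, in 97.3% to 99.2%. Arg2, the mitochondrial arginase, was detected in 58.7% to 80.2% and Cyp2c66, a cytochrome P450, in 75% to 84.6%. Ces1f, a carboxylesterase, varied most between the lines, at 74.5% to 81.1% in the WT libraries and 45.2% and 50% in the CRISPR libraries. In 0.415% to 0.758% of the members of a library all marker UMIs came from 1 gene. In the summed counts Gstm3 was at 805 and 795 CPM in -EIPA and at 1076 and 1108 CPM in +EIPA. Cyp2c66 went the other way, at 182 and 176 CPM against 140 and 167 CPM. The groups did not overlap in either gene, while in Arg2, Akr1c19 and Ces1f they did. Over all genes tested, scaled by the TMM factors of edgeR, groups were apart in 17% as higher and in 17.8% as lower. In the CRISPR line Gstm3 was at 623 CPM in -Dox and 510 CPM in +Dox, and Cyp2c66 at 223 and 141 CPM. Akr1c19 was at 707 and 845 CPM, Arg2 at 105 and 124 CPM and Ces1f at 65.5 and 62.8 CPM. These levels are of genes that chose the cells and carry no test.

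Early enterocytes made up a similar share of the cells with and without EIPA, and a smaller share in the CRISPR line. They were 9.56% and 8.06% of kept cells in -EIPA and 10.1% and 8.54% in +EIPA. The 2 replicates of a condition lay further apart than the conditions. The means were 8.81% ± 1.06 (SD, n = 2 libraries) and 9.32% ± 1.11 (SD, n = 2), with p = 0.667 by a two-sided exact permutation test, which with 2 libraries against 2 cannot go below 0.333. Within each replicate number the +EIPA share was 1.06 times the -EIPA share, a direction that did not hold under every setting. With a mature threshold of 10 in place of 20 the shares were 5.48% and 5.39% in -EIPA and 4.95% and 4.45% in +EIPA. With every cell thinned to 5000 UMIs they were 11.1% and 9.77% against 11.4% and 9.61%, and without the cells of highest doublet score 9.68% and 7.75% against 9.44% and 7.78%. In the CRISPR line the share was 4.56% in -Dox (95% exact binomial interval 4.26% to 4.88%) and 1.09% in +Dox (0.915% to 1.29%), or 0.239 times as large. After the same thinning the CRISPR shares were 5.83% and 1.47%. These libraries have no replicate, and the intervals cover counting error only. The genes of the rule also differ between the lines. In mature enterocytes Gstm3 was at 867 to 1291 CPM in the WT libraries and at 410 and 299 CPM in -Dox and +Dox. Akr1c19 was at 689 to 1058 CPM against 412 and 423 CPM. Arg2 was at 252 to 327 CPM against 81.2 and 70.5 CPM, and Ces1f at 129 to 173 CPM against 38.2 and 27.9 CPM. Cyp2c66 overlapped between the lines there. Of the genes that exclude cells, Sis was at 2237 to 2742 CPM against 2944 and 4947 CPM. Slc5a1 was at 600 to 905 CPM against 1516 and 2343 CPM. Apob and Slc2a2 overlapped between the lines. Mttp was at 597 to 777 CPM against 352 and 508 CPM. The part of these levels in the CRISPR shares, here and below, was not tested.

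Mature enterocytes were further apart between the conditions. Mature enterocytes were 10.7% and 4.42% of kept cells in -EIPA and 18.9% and 16.6% in +EIPA, and 18.8% in -Dox and 37.3% in +Dox. For each early enterocyte there were 1.12 and 0.548 mature ones in -EIPA, 1.87 and 1.94 in +EIPA, 4.13 in -Dox and 34.1 in +Dox. Both +EIPA libraries were above both -EIPA libraries, which gives the smallest p that the exact permutation test allows here, 0.333.

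**Figure D1:**
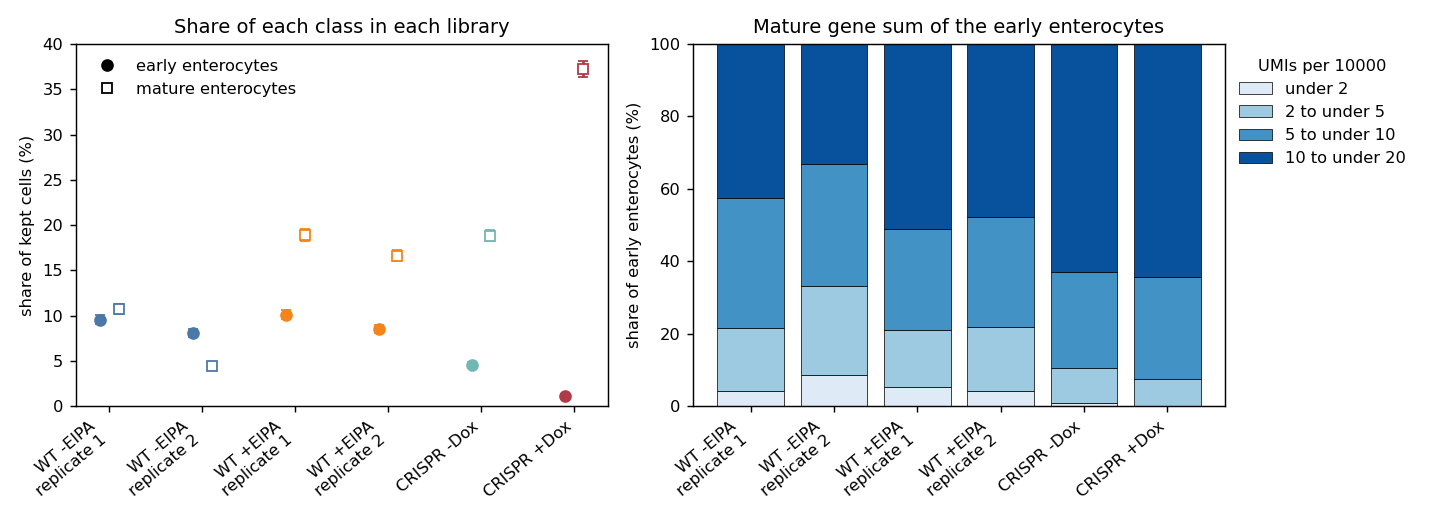
Left, the share of kept cells (%) that were early (filled circles) or mature enterocytes (open squares) in each library, with 95% exact binomial intervals. Right, the early enterocytes of each library divided by their mature gene sum per 10000 UMIs. The early share lies from 8.06% to 10.1% in WT and is 1.09% in +Dox, and the darkest range, a sum of 10 to under 20, holds 33.2% to 42.7% of the -EIPA members and 47.9% to 51.0% of the +EIPA members.

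Within the class the +EIPA cells lay nearer to the mature end. Members with a mature gene sum of 10 or more per 10000 were 42.7% and 33.2% in -EIPA, 51.0% and 47.9% in +EIPA, 63.0% in -Dox and 64.4% in +Dox. The WT groups did not overlap, while the CRISPR pair had intervals of 59.6% to 66.4% and 55.6% to 72.5%. The sum is part of the rule that chose the cells, so these shares are a description with no test. Along this sum Fabp1 was at medians over the WT libraries of 3927, 8492 and 15340 CPM in members at 2 to under 5, 5 to under 10 and 10 to under 20 per 10000. Apoa1, a lipoprotein of chylomicrons and high-density lipoprotein, went through 303, 681 and 1761 CPM. Lgals2, a galectin, went the other way through 5699, 5002 and 3932 CPM, and Dmbt1, a scavenger receptor-like protein of mucosal defence, through 364, 279 and 181 CPM. Fos, an immediate early transcription factor, was flat on this axis, at 254, 268 and 248 CPM. Any comparison of -EIPA with +EIPA over the whole class therefore includes a different mix of these ranges. Values within ranges are given where the groups of genes are described. The ranges are cut on absorptive genes of the rule. Genes that vary along the sum can thus differ less within a range by construction.

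Cell division genes were well below their level in cycling cells and, in most libraries, above that in mature enterocytes. Summed over 20 mitosis genes, early enterocytes were at 752 and 993 CPM in -EIPA, 871 and 970 CPM in +EIPA, 965 CPM in -Dox and 580 CPM in +Dox. Mature enterocytes were at 519 and 636, 541 and 471, 818 and 673 CPM in the same order, so that only +Dox had the lower sum in early cells, and cycling cells were at 4419 to 4748 CPM. Over 19 DNA replication genes early enterocytes were at 354 to 481 CPM in the WT libraries, each above the mature enterocytes of the same library, and below them in both CRISPR libraries, at 463 against 471 CPM in -Dox and 361 against 409 CPM in +Dox. After thinning to 5000 UMIs, Mki67 or Top2a, which mark dividing cells, had a UMI in 19.5% and 23.7% of early enterocytes in -EIPA, 21.3% and 17.6% in +EIPA, 24.4% in -Dox and 12.8% in +Dox. Unthinned, the shares were 32.0% to 40.5%. In mature enterocytes, which have left the cell cycle, the thinned shares were 18.1% and 20% in -EIPA, 15.3% and 12.4% in +EIPA, 23.1% in -Dox and 17.4% in +Dox. Mature cells were taken to be out of the cycle without a test, so a share at or near their level was not read as division. In -EIPA, -Dox and +Dox the 95% exact binomial intervals of the early and the mature share met. In +EIPA they lay apart. For replicate 1 they were 19.1% to 23.7% in early against 13.8% to 16.9% in mature cells. For replicate 2 they were 15.5% to 19.9% in early cells against an upper bound of 13.9% in mature ones. These intervals cover counting error within a library only. The early shares overlapped between -EIPA and +EIPA, while the mature shares were lower in both +EIPA libraries. A difference in division between the conditions was not tested. Median depths ran from 11308 to 17250 UMIs in early and from 8974 to 16827 UMIs in mature cells, and 7 to 129 early cells of a library were too shallow to be thinned. The 10% of cells of highest doublet score in each library were kept in these shares. Of the early enterocytes they were 8.13% and 13.0% in -EIPA and 15.8% and 18.0% in +EIPA.

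Genes that the rule did not use were ranked by their level over the other kept cells. Since 4 of the 5 marker genes that chose the cells, Gstm3, Akr1c19, Cyp2c66 and Ces1f, are themselves enzymes of detoxification, the ranking is a description with no test. Of 1083 genes at 100 CPM or more in the early enterocytes of every library, 11 were at least 2-fold above the other kept cells in every library, and 9 were at 0.5 times or less. Ces2a, a carboxylesterase of the endoplasmic reticulum, was 3.26 times as high as in the other cells (median of 6 libraries, range 2.56 to 6.11). St3gal4, a sialyltransferase, followed at 3.23 times and Gsta4, a glutathione S-transferase, at 3.15 times. Fmo5 (a flavin monooxygenase), Aldh1a1 (a retinaldehyde dehydrogenase), Adh1 (an alcohol dehydrogenase), Aadac (a deacetylase), Mgst2, Gstm1, Cmbl, Mgst3 and Cbr1 had ratios from 2.48 to 2.88. Gm3776 belongs to the near-identical Gsta1 family, between whose members reads may be split, and its ratio of 2.68 is uncertain for that reason. Reg3g, an antimicrobial lectin, was 2.51 times and Cdkn2b, an inhibitor of cell cycle kinases, 2.48 times as high. Cycling cells, which were chosen below the marker threshold, held all 15 genes below the early enterocytes. Mature enterocytes held most of them at similar or higher levels, with Aldh1a1 in early enterocytes at 0.461 times and Adh1 at 0.453 times the mature level. At the other end Olfm4 was at 0.188 times, the Paneth defensin Defa24 at 0.250 times and the goblet peptide Tff3 at 0.309 times the level in the other cells. Where early enterocytes stood above mature ones, the highest ratios, picked after the values were seen, were 2.87 for Dmbt1, 2.47 for Ccnd2 (a cyclin of the first growth phase), 2.45 for Csrp2 (a LIM domain protein), 2.43 for Lgals2, 2.36 for Fgfbp1 (a carrier of fibroblast growth factors) and 2.25 for Gpx2 (a glutathione peroxidase).

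**Figure D2:**
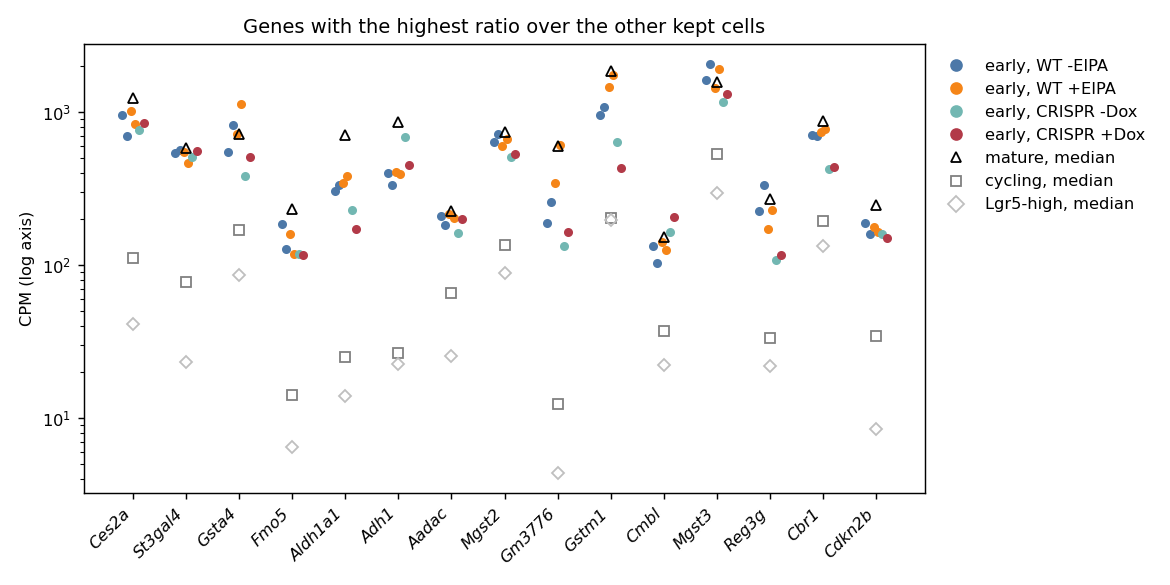
CPM on a log axis of the 15 genes outside the rule with the highest ratio of early enterocytes over other kept cells. Coloured points are the 6 libraries of early enterocytes, and open symbols are medians over libraries in mature, cycling and Lgr5-high cells. Ces2a sits at a median of 838 CPM in early enterocytes, against 1239 CPM in mature, 111 CPM in cycling and 41.2 CPM in Lgr5-high cells.

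With EIPA no gene passed the test over the summed counts of 2 libraries per group. edgeR's quasi-likelihood test called 0 of 11901 genes higher (0% of those tested) and 0 lower (0%) at a Benjamini-Hochberg adjusted p under 0.05, while 720 had an unadjusted p under 0.05. DESeq2 called 54 genes higher (0.454%) and 28 lower (0.235%). The study's source data place libraries of the same number in the same experiment, and with this pairing as a replicate block edgeR called 486 genes higher (4.08%) and 227 lower (1.91%). The block leaves 1 residual degree of freedom, so that its small adjusted p values rest on the spread shared across genes. In an alternative added after seeing the data, without the 10% of cells of highest doublet score in each library, the block called 225 genes higher (1.97%) and 90 lower (0.79%). Those cells were 8.13% and 13.0% of the early enterocytes in -EIPA and 15.8% and 18.0% in +EIPA. Without regard to a test, 17% of genes had both +EIPA libraries above both -EIPA libraries and 17.8% both below, in CPM scaled by the TMM factors of edgeR. The median log2 fold change over all genes tested was -0.0008. Below, "rose" and "fell" are used of genes that passed with the replicate block, and 0 of these genes had an adjusted p under 0.05 without it. Among 53 genes followed through every alternative that p ran from 0.15 to 0.99, being 0.654 for Fabp1, 0.84 for Tff3, 0.864 for Spink4 and Rbp2, 0.872 for Defa24, 0.933 for Jund and 0.965 for S100a6.

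Immediate early genes were lower with EIPA as a group, in early enterocytes and in the other classes. These genes, transcribed within minutes of a growth factor or stress signal, numbered 16, of which 14 fell with the replicate block (13 without the cells of highest doublet score), 9 by DESeq2 and 0 without the block. Their median log2 fold change was -0.90, and 14 of 16 had both +EIPA libraries below both -EIPA libraries, against 17.8% of all genes tested. Of all genes 1.91% fell with the block, 0.79% with the block and without the cells of highest doublet score, and 0.235% by DESeq2. Fos, on chromosome 12 from 85473890 to 85477273, was at 360 and 420 CPM in -EIPA and at 134 and 150 CPM in +EIPA. Its log2 fold change was -1.37 ± 0.13 (SE, n = 2 libraries per group), with an adjusted p of 0.15 and of 3.83e-11 with the replicate block. Both +EIPA libraries were under 0.5 times the lower -EIPA library. Fosb, its relative, was at 28.9 and 22.7 CPM against 6.82 and 4.85 CPM, a log2 fold change of -2.07 ± 0.21. Summed over the list, early enterocytes were at 2104 and 2247 CPM in -EIPA and at 1241 and 1066 CPM in +EIPA. Mature enterocytes were at 1813 and 1932 CPM against 1250 and 1099 CPM. Cycling cells were at 1677 and 1846 CPM against 988 and 949 CPM. Lgr5-high cells were at 1820 and 2128 CPM against 1195 and 1203 CPM.

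Atf3, a stress-induced transcription factor, was at 46.3 and 59.8 CPM in -EIPA and at 18.2 and 14.6 CPM in +EIPA. Jun, the partner of Fos in AP-1, was at 356 and 414 CPM against 192 and 122 CPM, and Egr1, a zinc finger factor downstream of ERK, at 164 and 174 CPM against 87.4 and 89.0 CPM. Dusp1, a phosphatase that switches off MAP kinases, was at 36.8 and 40.8 CPM against 19.7 and 14.5 CPM, and Btg2, an antiproliferative cofactor, at 88.7 and 108 CPM against 54.6 and 55.2 CPM. In each of these genes the groups were apart by more than the replicates. Jund changed least of the members that fell, at 392 and 303 CPM against 311 and 219 CPM, with groups that overlapped.

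The other genes of lowest p on the lower side included growth factors. Hbegf, an EGF receptor ligand, was at 146 and 161 CPM in -EIPA and at 66.0 and 42.5 CPM in +EIPA, a log2 fold change of -1.43 ± 0.20. Pdgfa, a growth factor for stromal cells, was at 220 and 209 CPM against 128 and 133 CPM. Rhob, a small GTPase, Trib1, a pseudokinase, Pmaip1, the cell death protein Noxa, and Cldn23, a claudin, had log2 fold changes from -0.85 to -0.98. The 12 genes of lowest p on the lower side (Fos, Fosb, Atf3, Egr1, Dusp1 and Btg2 among them) and the 12 on the higher side had adjusted p values of 0.15 to 0.258 without the block.

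Genes switched on by ATF4, the transcription factor of the amino acid response, were higher with EIPA in early enterocytes and in cycling cells. The list had 15 genes, Atf4 itself included, and 14 were tested, of which 11 rose with the replicate block (8 without the cells of highest doublet score), 5 by DESeq2 and 0 without the block, and 0 fell. The median log2 fold change was 0.73, and 11 of 14 had groups that did not overlap in the higher direction, against 17% of all genes. Of all genes 4.08% rose with the block, 1.97% with the block and without the cells of highest doublet score, and 0.454% by DESeq2. Asns, the asparagine synthetase, was at 87.3 and 54.1 CPM in -EIPA and at 128 and 96.1 CPM in +EIPA, a log2 fold change of 0.74 ± 0.25 with an adjusted p of 0.705. It was 0.43 without -EIPA replicate 2 and 1.13 without -EIPA replicate 1. Of the serine pathway, chosen after the values were seen, Phgdh was at 40.5 and 35.4 CPM against 92.3 and 57.4 CPM, Psat1 at 29.7 and 22.4 CPM against 65.3 and 45 CPM, and Psph at 39.7 and 28.7 CPM against 83.6 and 62.8 CPM. In each of the 3 enzymes both +EIPA libraries exceeded both -EIPA libraries. Slc7a11, the cystine importer, was at 7.72 and 10.5 CPM against 18.8 and 17.8 CPM, and Chac1, which degrades glutathione, at 8.71 and 5.61 CPM against 8.30 and 14.9 CPM, with groups that overlapped. Atf4 itself was at 155 and 142 CPM against 140 and 135 CPM. Summed over the list, early enterocytes were at 563 and 437 CPM in -EIPA and at 798 and 646 CPM in +EIPA. Cycling cells were at 848 and 669 CPM against 1201 and 990 CPM. The groups overlapped in mature enterocytes, at 593 and 481 CPM against 618 and 491 CPM. They also overlapped in Lgr5-high cells, at 665 and 524 CPM against 800 and 595 CPM.

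**Figure D3:**
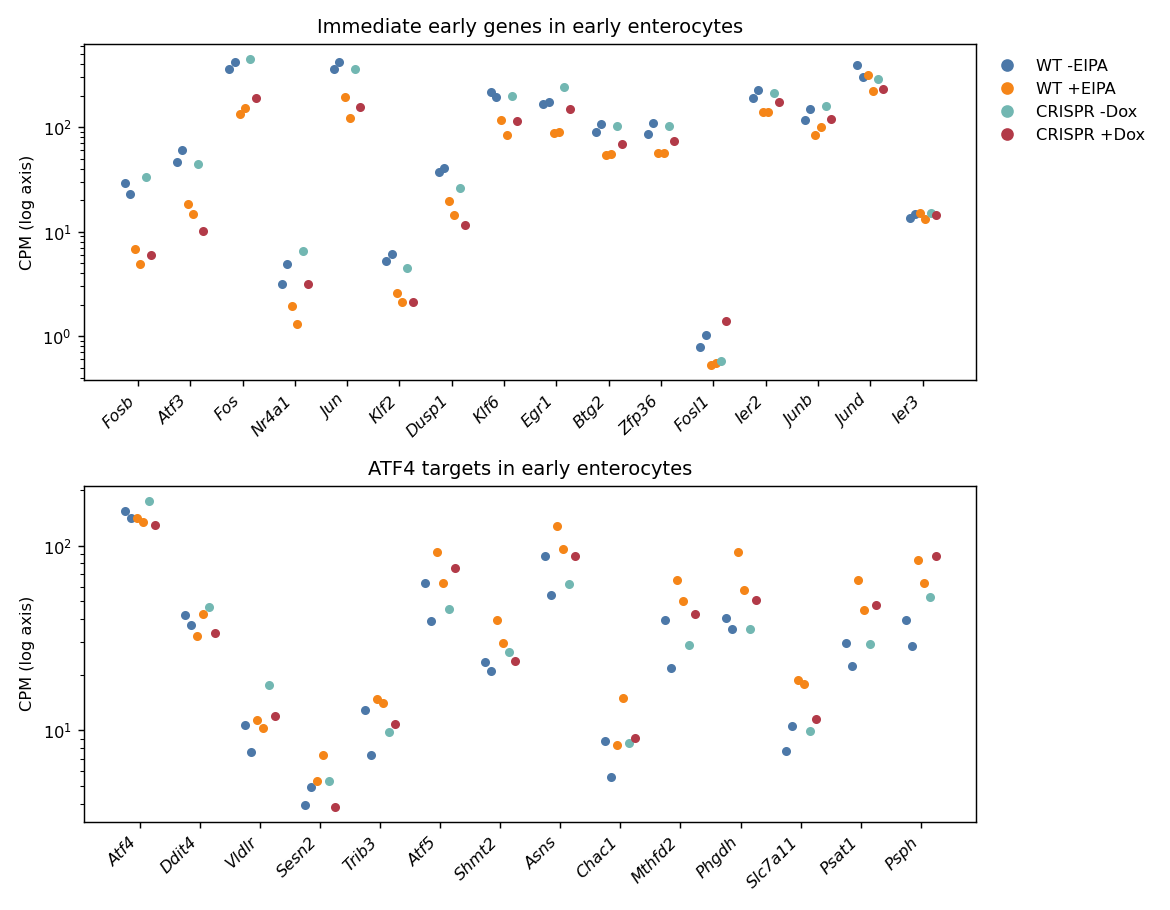
CPM on a log axis of the immediate early genes (top) and the ATF4 targets (bottom) in early enterocytes, 1 point per library, with genes ordered by their log2 fold change with EIPA. Among immediate early genes the orange +EIPA points lie below the blue -EIPA points in 14 of 16 genes, and among ATF4 targets above them in 10 of 14 on this unscaled CPM axis (11 of 14 after TMM scaling).

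The promoters of these lists were searched for 8 short elements in the 250 bases before the RefSeq start (GRCm38.p6). A start was found for 15 of the ATF4 targets and 13 of the immediate early genes. The ATF4 element TGATGNAA, on either strand, was in 3 of the 15 promoters of ATF4 targets (Asns, Chac1 and Slc7a11), in 1 of the 13 of immediate early genes (Atf3) and in 3.53% of all 27025 promoters. The cyclic AMP element TGACGTCA was in 2 of the 13 promoters of immediate early genes (Dusp1 and Btg2) and in 1.62% of all. The CArG box, the site of serum response factor, was in 1 of these 13 (Zfp36) and in 1.4% of all. The other elements searched were the AP-1 site TGANTCA, the antioxidant response element TGACNNNGC, CAAAGTCCA of HNF4, CAATAAA of CDX2 and the GATA site AGATAA. They were in 6.87%, 10.1%, 0.381%, 4.42% and 10.3% of all promoters. The antioxidant response element was in 3 of 15 ATF4 targets and 2 of 13 immediate early genes, the AP-1 site in 1 and 0, and the GATA site in 0 and 1. The elements of HNF4 and CDX2 were in 0 of either list. A match describes letters and is not a measured site. As examples of members that moved, the promoter of Slc7a11 (chr3:50443614-50443863, minus strand), with both ATF4 elements in capitals, and that of Btg2 (chr1:134079156-134079405, minus strand), with its cyclic AMP element in capitals, read 5′ to 3′ as follows.
Slc7a11: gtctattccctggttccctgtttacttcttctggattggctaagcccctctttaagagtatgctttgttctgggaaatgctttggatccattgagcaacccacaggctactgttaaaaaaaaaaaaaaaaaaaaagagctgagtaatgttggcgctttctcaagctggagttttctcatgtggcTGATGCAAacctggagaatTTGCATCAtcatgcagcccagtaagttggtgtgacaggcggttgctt
Btg2: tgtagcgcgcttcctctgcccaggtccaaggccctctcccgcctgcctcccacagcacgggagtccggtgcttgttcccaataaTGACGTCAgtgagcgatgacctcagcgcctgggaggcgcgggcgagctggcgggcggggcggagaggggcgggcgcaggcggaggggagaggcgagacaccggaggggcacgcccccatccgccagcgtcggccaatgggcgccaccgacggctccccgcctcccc

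Part of the genes for absorbing fat, sugar and peptides rose with EIPA over the whole class. The shares to read these counts against, over all genes, are 4.08% higher with the block and 1.97% without the cells of highest doublet score. Of 18 genes for fat uptake and lipoprotein assembly 11 rose with the replicate block (9 without the cells of highest doublet score), 3 by DESeq2 and 0 without the block. Apoa4, an apolipoprotein of chylomicrons on chromosome 9 from 46240696 to 46243459, was at 142 and 137 CPM in -EIPA and at 250 CPM in either +EIPA library. Its log2 fold change was 0.92 ± 0.10, with an adjusted p of 0.154. Apoc3, which slows the clearance of these particles, was at 74.2 and 77.3 CPM against 143 and 203 CPM. Fabp1 was at 9538 and 8604 CPM against 11477 and 11531 CPM and Rbp2, the retinol carrier, at 2493 and 2949 CPM against 2971 and 3248 CPM. The groups were apart in all 4, with the smallest step in Rbp2.

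Of 15 brush-border hydrolases tested 9 rose with the block (8 without the cells of highest doublet score), 2 by DESeq2 and 0 without the block. Their median fell to 0.15 without -EIPA replicate 2. Ggt1, which splits glutathione at the cell surface, was at 21.6 and 21.1 CPM in -EIPA and at 39.4 and 39.9 CPM in +EIPA. Dpep1, a dipeptidase that acts after it and no member of the list, was at 12.2 and 12.6 CPM against 25.4 and 26.3 CPM. The replicates of each gene lay close together, and the conditions apart. The log2 fold change of Ggt1 was 0.97 over the class and 0.16, 0.74 and 0.72 within the ranges of the mature gene sum. That of Dpep1 was 1.14 over the class and -0.029, 0.74 and 1.01 within the ranges. Of 9 genes for sugar uptake and fructose 5 rose and 1 fell with the block (3 and 0 without the cells of highest doublet score) and 0 passed by DESeq2, with a median of 0.25 without -EIPA replicate 2. Of 17 brush-border structure genes 7 rose with the block and 3 without those cells, and of 13 amino acid and peptide transporters 3 rose with the block, 1 without those cells and 0 by DESeq2, so that most of them did not pass.

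Within the ranges of the mature gene sum the medians of the absorptive lists were smaller, and those of the immediate early and ATF4 lists stayed closer to the value over the class. For fat the median log2 fold change was 0.39 over the class and 0.10, 0.25 and 0.22 at sums of 2 to under 5, 5 to under 10 and 10 to under 20. For brush-border hydrolases it was 0.42 over the class and 0.13, 0.07 and 0.32 in the ranges, and for sugar 0.45 against 0.06, 0.13 and 0.34. Immediate early genes had -0.90 over the class and -0.86, -0.98 and -0.93 in the ranges, and ATF4 targets 0.73 against 0.86, 0.83 and 0.64. Apoa4 went from 0.92 to 0.17, 0.63 and 0.69. These fits were added after the ranges were seen to differ between conditions, and over all genes tested the median within a range stayed within 0.01 of 0. The ranges were cut on absorptive genes of the rule. Smaller medians for lists that vary along this sum, and little change for genes flat on it, thus follow in part from the cut. The part of maturity in the values over the class was not tested.

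**Figure D4:**
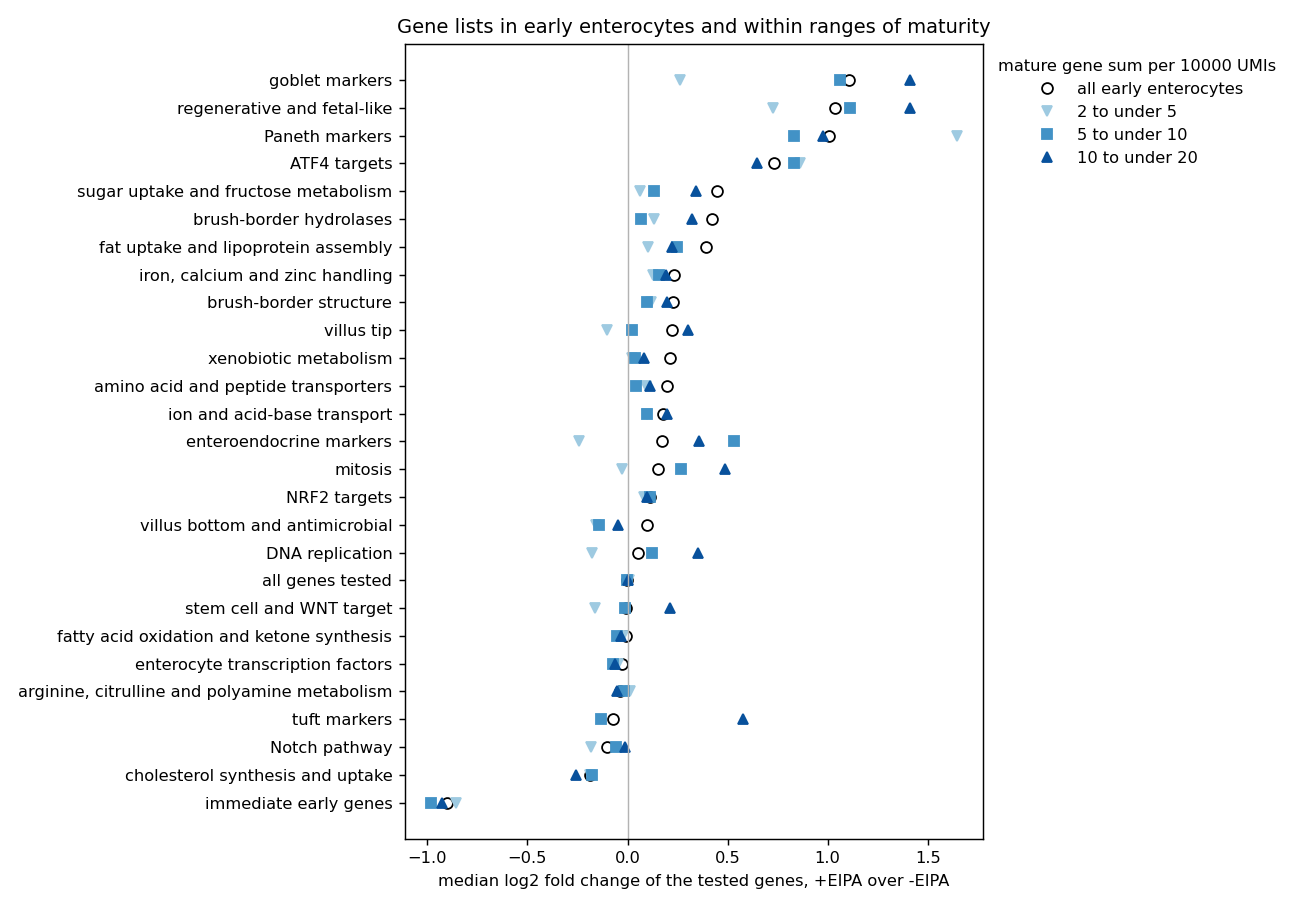
Median log2 fold change, +EIPA over -EIPA, of the tested genes of each list with 5 or more of them, over all early enterocytes (open circles) and within 3 ranges of the mature gene sum (filled symbols). The immediate early genes lie between -0.98 and -0.86 in every fit, and the 3 filled symbols of fat uptake lie at 0.10 to 0.25, below its open circle at 0.39. The ranges are cut on absorptive genes of the rule.

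The intestinal guanylins, hormones that act on the guanylate cyclase of enterocytes and set salt and water secretion, had the highest fold changes named among genes of ion and acid-base transport. Guca2b was at 131 and 158 CPM in -EIPA and at 325 and 394 CPM in +EIPA, a log2 fold change of 1.40 ± 0.16 with an adjusted p of 0.154. Guca2a, picked after its values were seen, was at 28.7 and 35.5 CPM against 76.2 and 127 CPM. Within the ranges of maturity Guca2b had log2 fold changes of 0.70, 1.04 and 1.25. Over all genes tested 4.08% rose and 1.91% fell with the block. The shares were 1.97% and 0.79% without the cells of highest doublet score, and 0.454% and 0.235% by DESeq2. Of the 22 genes of ion and acid-base transport tested, 7 rose and 1 fell with the block and 2 rose by DESeq2, with a median of 0.18. The median was 0.29 without -EIPA replicate 1, 0.11 without the cells of highest doublet score, where 6 rose and 0 fell with the block, and 0.10, 0.10 and 0.20 within the ranges of maturity.

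Detoxifying genes differed between conditions in part. Summed over 36 genes of xenobiotic metabolism, they were at 8934 to 11676 CPM in the early and 16757 to 22035 CPM in the mature enterocytes of the WT libraries. Of 36 genes of xenobiotic metabolism 14 rose and 1 fell with the replicate block (11 and 0 without the cells of highest doublet score), 3 rose by DESeq2 and 0 passed without the block. Their median log2 fold change of 0.21 over the class was 0.02, 0.04 and 0.08 within ranges, and 0.10 without -EIPA replicate 2 and 0.11 without +EIPA replicate 2. Gsta1 was at 1468 and 1536 CPM in -EIPA and at 2278 and 2655 CPM in +EIPA, with a log2 fold change of 0.80 ± 0.13 (0.60, 0.65 and 0.66 within ranges). Reads of its near-identical relatives may be split with it. Gstm1 was at 960 and 1079 CPM against 1446 and 1745 CPM, and Gstm4, outside the list, at 19.4 and 24.2 CPM against 40.4 and 50.2 CPM. The log2 fold change of Gstm1 was 0.73 over the class and 0.31, 0.50 and 0.70 within ranges. That of Gstm4 was 1.14 over the class and 0.29, 0.66 and 1.17 within ranges. Ces2a, first in the ranking over other cells, was at 957 and 695 CPM against 1010 and 832 CPM, with groups that overlapped. Adh4, also outside the list and an alcohol dehydrogenase that acts on retinol, was at 31.3 and 31.8 CPM against 49.5 and 45.6 CPM. Of 12 NRF2 targets 3 rose and 0 fell with the block (3 and 1 without the cells of highest doublet score), with a median of 0.11. Over all genes 4.08% rose and 1.91% fell with the block.

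Some of the genes of lowest p on the higher side belonged to no absorptive list. Il18, a cytokine of the epithelium, was at 44.0 and 36.8 CPM in -EIPA and at 80.6 and 72.5 CPM in +EIPA, and Gsdmd, the pore-forming protein gasdermin D, at 18.3 and 18.0 CPM against 30.6 and 37.6 CPM. Cgref1, a secreted calcium-binding protein, was at 58.3 and 61.9 CPM against 89.0 and 97.6 CPM. Sprr1a, a cornified envelope protein, was at 1.11 and 2.46 CPM against 26.6 and 33.4 CPM. Its groups were further apart than those of any other of the 12 genes named as higher, with a log2 fold change of 4.09 ± 0.32.

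Genes of cholesterol synthesis and uptake were on the lower side by small amounts, and the sign of their median depended on 1 library. They summed to 3993 and 3255 CPM in -EIPA and to 3141 and 2872 CPM in +EIPA. Of 19 genes tested 0 had a log2 fold change above 0 and 19 below, with a median of -0.19 (0.03 without -EIPA replicate 1), and 2 fell with the block and 0 by DESeq2. Idi1, an isomerase of the pathway, was at 360 and 364 CPM against 270 and 286 CPM. Its log2 fold change of -0.30 lay from -0.37 to -0.24 when a library was left out. With library sizes in place of TMM factors the median over all genes moved to -0.08. For the remaining epithelial lists the counts with the block are to be read against 4.08% higher and 1.91% lower over all genes. They were 1 rise and 4 falls of 28 enterocyte transcription factors, 2 and 0 of 17 genes of arginine, citrulline and polyamine metabolism, 1 and 0 of 17 of fatty acid oxidation and ketone synthesis, 3 and 1 of 12 of iron, calcium and zinc handling, 4 and 2 of 11 villus bottom and antimicrobial genes (1 and 0 without the cells of highest doublet score), and 1 and 1 of 8 villus tip genes. For the crypt they were 0 and 0 of 13 Notch genes, 0 and 2 of 19 stem cell and WNT target genes, 0 and 0 of 19 DNA replication genes and 3 and 0 of 20 mitosis genes (0 and 0 without the cells of highest doublet score). By DESeq2, 1 villus bottom gene rose and 1 villus tip gene, Fos, fell, and 0 genes of the other lists in this paragraph passed.

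Markers of secretory cells moved with the condition and with the doublet score in these cells. Over all genes tested 4.08% rose and 1.91% fell with the block. The shares were 1.97% and 0.79% without the cells of highest doublet score, and 0.454% and 0.235% by DESeq2. Of 8 goblet markers 7 rose with the block and 2 by DESeq2, with a median log2 fold change of 1.11. Without the cells of highest doublet score 2 rose and the median was 0.54, and it was 0.22 without +EIPA replicate 2, 0.74 without -EIPA replicate 1 and 1.64 without +EIPA replicate 1. Zg16, a lectin of the mucus layer, was at 26.1 and 11.8 CPM in -EIPA and at 146 and 109 CPM in +EIPA, with a log2 fold change of 2.84 that was 1.30 without those cells (adjusted p = 0.811 by edgeR). Spink4 was at 390 and 876 CPM against 694 and 1980 CPM and Tff3 at 312 and 554 CPM against 498 and 1169 CPM, so that in both genes the groups overlapped and replicate 2 was above replicate 1 in each condition. Of 8 Paneth markers 7 rose and 1 fell with the block and 0 passed by DESeq2, with Defa24 at 595 and 2039 CPM against 1591 and 4480 CPM. The Paneth median of 1.01 was 0.55 without those cells, with 4 rises and 1 fall. It was 0.09 without +EIPA replicate 2, 0.24 without -EIPA replicate 1, 1.67 without +EIPA replicate 1 and 2.12 without -EIPA replicate 2. Summed over the list, goblet markers were at 1003 and 1786 CPM in -EIPA and 1670 and 3902 CPM in +EIPA, and Paneth markers at 1089 and 4204 CPM against 2675 and 8089 CPM. In the Lgr5-high cells of the same 4 libraries goblet markers summed to 3615 to 7865 CPM and Paneth markers to 10054 to 25899 CPM. Their part in the other differences between -EIPA and +EIPA was not tested.

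Over all genes tested 4.08% rose and 1.91% fell with the block. The shares were 1.97% and 0.79% without the cells of highest doublet score, and 0.454% and 0.235% by DESeq2. Of 14 regenerative and fetal-like genes tested 11 rose and 1 fell with the block, 4 rose and 1 fell by DESeq2, and the median was 1.04. Without the cells of highest doublet score 7 rose and 0 fell, and the median was 0.53 without +EIPA replicate 2, 0.57 without -EIPA replicate 1 and 1.91 without -EIPA replicate 2. S100a6, a calcium-binding protein, was at 425 and 1427 CPM in -EIPA and at 838 and 2368 CPM in +EIPA, with groups that overlapped, and Areg, an EGF receptor ligand, at 67.2 and 78.9 CPM against 105 and 140 CPM. Of 7 enteroendocrine markers tested 2 rose with the block, Gip being at 15.6 and 38.9 CPM against 111 and 103 CPM. Without the cells of highest doublet score 0 of them rose, and the log2 fold change of Gip went from 2.04 to 0.07. Of 6 tuft markers tested 1 fell with the block, at sums of 9.25 to 18.3 CPM in WT. Stromal markers summed to at most 0.951 CPM, immune markers to at most 0.596 CPM and endothelial markers to at most 0.351 CPM in any library, and of these 15 genes 1 was tested and did not pass.

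Few genes passed the test of a difference in the response to EIPA between early and mature enterocytes. The other genes were not shown to respond alike. In a fit over the sums of both classes with the library as a block, edgeR called 3 of 12351 genes with a higher response in early enterocytes (0.0243%) and 8 with a lower one (0.0648%), and 1360 genes had an unadjusted p under 0.05. Of the 8, Defa22, Defa21 and AY761184 are alpha-defensins of Paneth cells, near-identical genes between which reads may be split. Defa22 was at 22.2 and 45.3 CPM in early enterocytes of -EIPA and at 2.91 and 18.8 CPM in those of +EIPA, but at 1.52 and 4.57 CPM and then 7.30 and 32.9 CPM in mature enterocytes. Its difference in response was -4.48 ± 0.20 on the log2 scale, with an adjusted p of 4.58e-07 by edgeR, and -2.19 with a mature threshold of 10 (adjusted p = 0.00154 by edgeR). That of AY761184 was -1.45, and -0.74 with that threshold. Dusp5, a nuclear phosphatase of ERK, was at 40.1 and 58.2 CPM against 27.1 and 32.4 CPM in early enterocytes and at 61.0 and 87.8 CPM against 70.9 and 89.6 CPM in mature ones, a difference of -0.87 ± 0.08 (adjusted p = 0.00113 by edgeR).

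Among the other genes with a lower response in early enterocytes were Tcim, a regulator of WNT signalling, with a difference of -0.61, Acta1, an actin, with -1.004 (-0.74 with a mature threshold of 10, where edgeR's adjusted p of 0.102 no longer passed), Tmsb4x, which binds actin monomers, with -0.54, and Cldn23 with -0.82. The 3 genes with a higher response were Sprr1a with a difference of 2.46, Muc2, the goblet mucin, with 0.82, and Mthfd2, the mitochondrial folate enzyme and an ATF4 target, with 0.64. Mthfd2 was at 39.3 and 21.8 CPM against 64.8 and 50.1 CPM in early enterocytes, and at 41.2 and 24.2 CPM against 43.9 and 33.3 CPM in mature ones. By DESeq2 8 genes were called, 1 higher and 7 lower. Without -EIPA replicate 2 the counts were 55 and 20, without -EIPA replicate 1 35 and 61, without +EIPA replicate 1 30 and 26, and without +EIPA replicate 2 15 and 25.

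**Figure D5:**
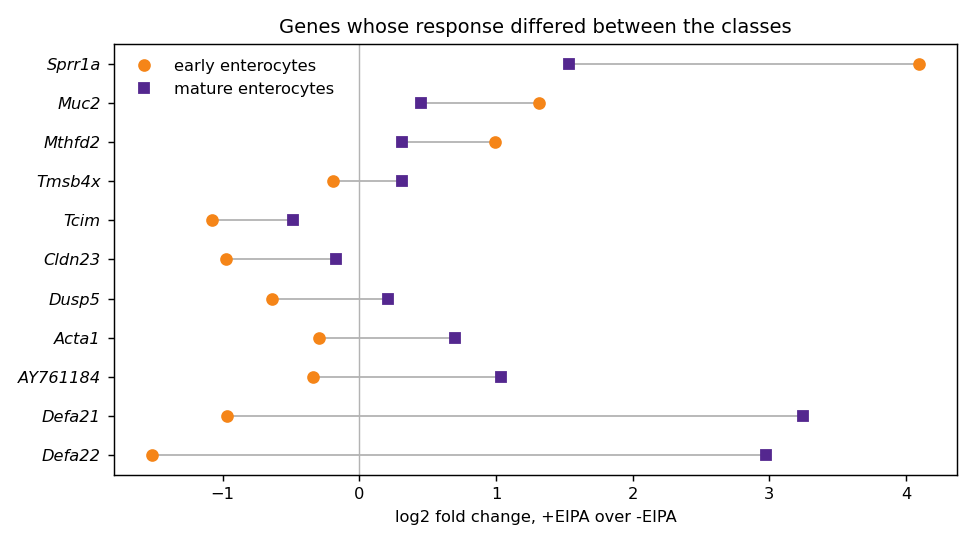
Log2 fold change, +EIPA over -EIPA, in early (circles) and mature enterocytes (squares) for the 11 genes whose response differed between the classes. Defa22 and Defa21 lie below 0 in early and near 3 in mature enterocytes, and Sprr1a lies at 4.09 in early and 1.54 in mature enterocytes.

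In the CRISPR line early enterocytes with Dox had more secretory RNA and less immediate early RNA than those without. Since each condition is 1 library, no test was made, and log2 ratios were taken of CPM with 10 CPM added. Of 7121 genes at 10 CPM or more in either library, 22 were at least 2-fold higher (0.309%) and 17 at least 2-fold lower (0.239%) in +Dox. The balance depended on the setting, with 3 higher and 93 lower at a mature threshold of 10 and 41 higher and 65 lower with 1 CPM added. Reg4, a lectin of secretory cells, was at 15.1 CPM in -Dox (95% Poisson interval 12.8 to 17.6) and at 135 CPM in +Dox (122 to 150), which is 2.54 as a log2 ratio. Ang4, an antimicrobial ribonuclease of Paneth cells, was at 34.5 CPM against 200 CPM, Zg16 at 14.5 CPM against 105 CPM and Muc2 at 26.4 CPM against 160 CPM. Fcgbp, Mmp7, Spink4 and Tff3 completed the 8 named as higher, at log2 ratios of 1.89 to 2.14. As sums, goblet markers were at 1031 CPM against 4136 CPM and Paneth markers at 2072 CPM against 6136 CPM, and in Lgr5-high cells goblet markers were at 2896 CPM against 5992 CPM and Paneth markers at 8542 CPM against 26015 CPM. Their part in the other differences was not tested.

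The genes with the lowest ratios were Rbp7, Ero1l, Fos, Cyp2c29, Jun, Bnip3, 2610528A11Rik and Selenbp1. Rbp7, a retinol carrier, was at 90.7 CPM in -Dox (85.0 to 96.7) and at 22.4 CPM in +Dox (17.3 to 28.7). Ero1l, an oxidase of the endoplasmic reticulum, was at 347 CPM against 144 CPM and Bnip3, a protein of mitophagy, at 158 CPM against 67.7 CPM. Fos was at 445 CPM in -Dox (432 to 458) and at 189 CPM in +Dox (174 to 206), and Jun at 356 CPM against 157 CPM. Of 13 immediate early genes at 10 CPM or more, 0 were higher and 4 were at least 2-fold lower in +Dox. Their median of the log2 ratio was -0.69, against -0.06 over all 7121 genes. Of 12 ATF4 targets 8 were higher, with a median of 0.27 and none at 2-fold. Psat1 was at 29.3 CPM against 47.7 CPM and Psph at 52.5 CPM against 87.3 CPM. Guca2b was at 62.1 CPM against 204 CPM and Guca2a at 87.9 CPM against 305 CPM.

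The EIPA and Dox comparisons share no library, so their directions can be set side by side. Of 322 genes that rose with EIPA under the replicate block and reached 10 CPM in the CRISPR line, 236 (73.3%) were higher in +Dox, against 39.6% of all 7121 genes. Of 179 that fell, 160 (89.4%) were lower in +Dox, against 60.4% of all genes. The median log2 ratio with Dox was 0.18 for the former and -0.29 for the latter. The secretory markers differ between the libraries of either comparison, and the mix of maturity between those of the EIPA comparison. In -Dox and +Dox 63.0% and 64.4% of members had a mature gene sum of 10 or more, with intervals that met. The part of the markers and of maturity in these shares was not tested.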

How the data were processed

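Counts for 6 libraries of single cells were used, all from organoids at day 3. The authors made the deposited counts with Cell Ranger 6.1.2, which aligned reads to mm10 and counted UMIs per gene and barcode. The deposited values were not normalized or filtered for quality or doublets. Methods other than single-cell sequencing were not used here.

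For each library, UMIs of the members of a class were added up and scaled to CPM. WT -EIPA and WT +EIPA (n = 2 libraries each) were compared in edgeR 4.0.16 (R 4.3.3) by TMM normalization, filterByExpr and the quasi-likelihood test, with Benjamini-Hochberg adjustment over all genes tested and a threshold of 0.05. The SE is the log2 fold change over the root of F. The 12 genes of the rule and mitochondrial genes counted in the library sizes but were not tested. DESeq2 1.42.0 was an alternative. The members, gene lists and tests were chosen with earlier results of these data known. Labels give the WT groups the same replicate numbers, and the study's source data pair them as experiments. As a check, libraries with the same number deviated together, with a correlation of 0.561 between their departures from the group means over 11926 genes. The labels do not say whether the libraries came from separate animals, so p-values measure the spread between these samples.

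On simulated counts with 200 changed genes and a dispersion of 0.01 (0.0216 in the data), edgeR recovered 100% at log2 changes of 1 (11900 genes) and 2 (11871 genes) for EIPA, and 84.5% and 100% for the difference in response (12246 and 12259 genes). 4.31%, 6.98%, 3.98% and 5.66% of calls were false. The simulated dispersion was below that of the data, so these shares do not give the power of the tests on the data. On the data edgeR's quasi-likelihood test called 0 genes with EIPA. Fos, at a log2 fold change of -1.37, had an adjusted p of 0.15 by that test. A change of this size could thus be missed there.

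Genes were named by rule: the 12 per direction of lowest p at 20 CPM or more where too few passed the threshold, the 3 most abundant of each list, the 15 of highest ratio over other cells, 8 per direction for Dox at 50 CPM or more, and genes of differing response. Others are said to have been picked after their values were seen, which also holds for Psat1, Phgdh, Psph, Slc7a11, Chac1, Zfp36, Krt20 and the genes given along the mature gene sum. Doublets were kept in the reported values. In an alternative the 10% of cells of highest Scrublet score in each library (scanpy 1.11.5) were removed, because its own threshold marked 0 cells of -EIPA replicate 1. Positions are from GENCODE M21 and promoters from RefSeq, both GRCm38. Intervals cover counting error only. Some genes, the one targeted in the CRISPR line among them, are not reported here.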

Additional observations from a re-analysis of the deposited data

Results flagged for a closer look

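Responses to EIPA that differed between early and mature enterocytes, by the test of the difference itself, were (early less mature, log2) -4.48 for Defa22, -4.05 for Defa21, -1.45 for AY761184, -1.004 for Acta1, -0.87 for Dusp5, -0.82 for Cldn23, -0.61 for Tcim, -0.54 for Tmsb4x, 0.64 for Mthfd2, 0.82 for Muc2 and 2.46 for Sprr1a. By DESeq2 the adjusted p was 0.938 for Sprr1a, 0.192 for Defa21, 0.0749 for Mthfd2, 0.0689 for Cldn23 and 0.0648 for Tcim.

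The share of early enterocytes was higher in each +EIPA library than in the -EIPA library of the same number, and lower by 3.47 percentage points in +Dox (a change of -3.47). The direction with EIPA depends on the gate and the cells: both +EIPA shares were the lower ones with a mature threshold of 10, that of replicate 1 without the cells of highest doublet score, and that of replicate 2 after thinning to 5000 UMIs. Opposite directions in the 2 lines also appeared in 4 named genes that were higher in both +EIPA libraries after TMM scaling and whose counting intervals in -Dox and +Dox lay apart. Their log2 ratio of +Dox over -Dox was -1.11 for Bnip3, -0.59 for Adh1, -0.56 for Gstm1 and -0.40 for Aldh1a1. Of the 322 genes called higher with the block and at 10 CPM in the CRISPR line, 86 (26.7%) were lower in +Dox. Of all 7121 genes 60.4% were lower there. The 4 genes are thus not read as a difference between the lines, which was not tested.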

How the results depend on the processing

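For the share of early enterocytes, +EIPA less -EIPA was 0.512 percentage points, -0.733 with a mature threshold of 10, 1.78 over cells outside the mature gate, -0.108 without the cells of highest doublet score, and -0.270 to 1.29 when a library was left out. Counts of genes called with EIPA, 0 higher and 0 lower, were 54 and 28 by DESeq2, 231 and 119 with no filter on low counts, and 486 and 227 with the replicate block (paired libraries), and 225 and 90 with the block and without the cells of highest doublet score, a fit added after seeing the data. They were 0 to 4 and 0 to 14 when a library was left out, the highest being 4 and 14 without -EIPA replicate 1 and the next 2 and 0 without -EIPA replicate 2. Within ranges of the mature gene sum, added after seeing the data, they were 0 and 3 at 2 to under 5, 0 and 0 at 5 to under 10, and 1 and 0 at 10 to under 20. Genes with a higher and a lower response in early than in mature enterocytes, 3 and 8, were 5 and 9 with 2000 genes and under 10% mitochondrial UMIs, 11 and 47 with a mature threshold of 10, 17 and 41 without the cells of highest doublet score, 1 and 7 by DESeq2, 6 and 8 with library sizes, 5 and 9 with DESeq2 size factors, 84 and 189 with no filter, and 15 to 55 and 20 to 61 when a library was left out. That fit holds the replicate number within its library block. Genes past 2-fold with Dox, 22 higher and 17 lower, were 3 and 93 with a mature threshold of 10, 12 higher without the cells of highest doublet score, 41 and 65 with 1 CPM added, and 29 lower with a marker threshold of 15. The cause of these differences was not tested.

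Of 901 values of the 53 genes followed under the alternatives, 7 changed sign. At a mature gene sum of 2 to under 5 they were -0.0080 for Apoa1, -0.029 for Dpep1, -0.24 for Gip and -0.21 for Rbp2. S100a6 was -0.088 without +EIPA replicate 2 and at most 2.00, which was without -EIPA replicate 2. Tmsb4x was -0.45 without +EIPA replicate 2, 0.023 without +EIPA replicate 1 and 0.042 without -EIPA replicate 2. A further 192 passed the threshold, 52 of them with the replicate block, 37 by DESeq2 and 47 with no filter.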
